A study of Ovis aries with 26 samples.

Results

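The mRNA levels of 10 sheep enzymes that remove reactive oxygen species or use glutathione were followed from the oocyte to the expanded blastocyst. The genes, SOD1, SOD2, CAT, GPX1, GPX2, GPX3, GPX4, PRDX1, PRDX2 and GSTA1, were taken by symbol from a table of 30186 genes, and all 10 were present. Poly(A) RNA of 26 libraries had been copied with Smart-seq2, a full-length cDNA method for very small RNA amounts, after direct lysis of oocytes or embryos. The groups were mature oocytes at the second meiotic metaphase (MII, 2 libraries), cleaving embryos named by their cell number (2C with 4 libraries, 4C with 3, 8C with 4, 16C with 3), and then Morula (3 libraries), early blastocysts (EarlyB, 3) and expanded blastocysts (ExpB, 4). Every embryo group came from mature oocytes fertilized in vitro and was cultured in commercial media, and the labels give no treatment, breed or genotype. The labels give neither the number of oocytes or embryos in a library nor the animals behind it. Nothing says that replicates are independent cultures, and a p-value here reflects the scatter of libraries alone, part of which may be technical.

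Superoxide dismutases turn superoxide into hydrogen peroxide. SOD1 acts mainly in the cytosol and SOD2 in the mitochondrial matrix. Hydrogen peroxide is then removed by catalase (CAT) in peroxisomes, by glutathione peroxidases (GPX), which oxidize glutathione, and by peroxiredoxins (PRDX), which are reduced again by thioredoxin. GPX1, GPX2, GPX3 and GPX4 are selenoproteins, and GPX4 reduces lipid hydroperoxides in membranes and thereby protects cells from ferroptosis. GSTA1 is an alpha-class glutathione transferase that conjugates glutathione to electrophiles and is known for high levels in steroid-producing cells of the ovary. Cultured embryos are known to be sensitive to oxygen tension, and oocytes carry a store of glutathione that helps to unpack the sperm nucleus.

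Levels are the deposited FPKM, a fragment count corrected for gene length and library size. They are given for each library in the order of its replicate number, or as a stage's mean ± SD with n as listed above. FPKM is a share of a library, so a change in the amount of RNA per embryo, or in the number of cells, cannot be told apart from a change in the share of one mRNA. Differences are between stage means of log2(FPKM + 1), a scale that understates the change of low genes. They were tested with limma over the 15766 genes that reached an FPKM of 1 in 2 or more libraries, and a gene was called higher or lower, and is said to have risen or fallen, at a Benjamini-Hochberg adjusted p under 0.05 and a difference of at least 1. GPX3 did not reach that level and was not tested, which leaves 9 tested genes. Reads assigned per library, recovered from the steps of the deposited values, numbered 27.2 to 35.6 in units of 1e6 from MII to 16C and 16.0 to 30.4 from Morula to ExpB. As a check of the labels, the summed FPKM of 10 oocyte markers lay between 5630 and 6450 in MII and between 11.3 and 24.5 in ExpB, and that of 9 blastocyst and trophectoderm markers between 5.59 and 6.09 in MII and between 3340 and 7520 in ExpB.

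Expanded blastocysts held more of nearly every one of these mRNAs than MII oocytes. Of the 9 tested genes, 8 were higher in ExpB than in MII (32.8% of all tested genes were called higher) and 0 lower (20.9% of all). The 8 were GPX1, GPX2, GPX4, PRDX1, PRDX2, SOD1, SOD2 and CAT, and GSTA1 was not called (difference 1.32, adjusted p = 0.2). With a pseudocount of 0.1 in place of 1, GSTA1 was called higher too (3.43, adjusted p = 0.045). The median difference of the 9 genes was 2.90, beside 0.33 over all tested genes. The sum of the 10 FPKM values went from 235 and 238 in MII to between 2406 and 2737 in the ExpB libraries, which is 0.0498% ± 0.00544 of a library's FPKM total in MII and 0.392% ± 0.024 in ExpB. Each of the 9 tested genes differed among the 8 stages in limma's moderated F-test, but so did 86.2% of all tested genes.

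**Figure D1:**
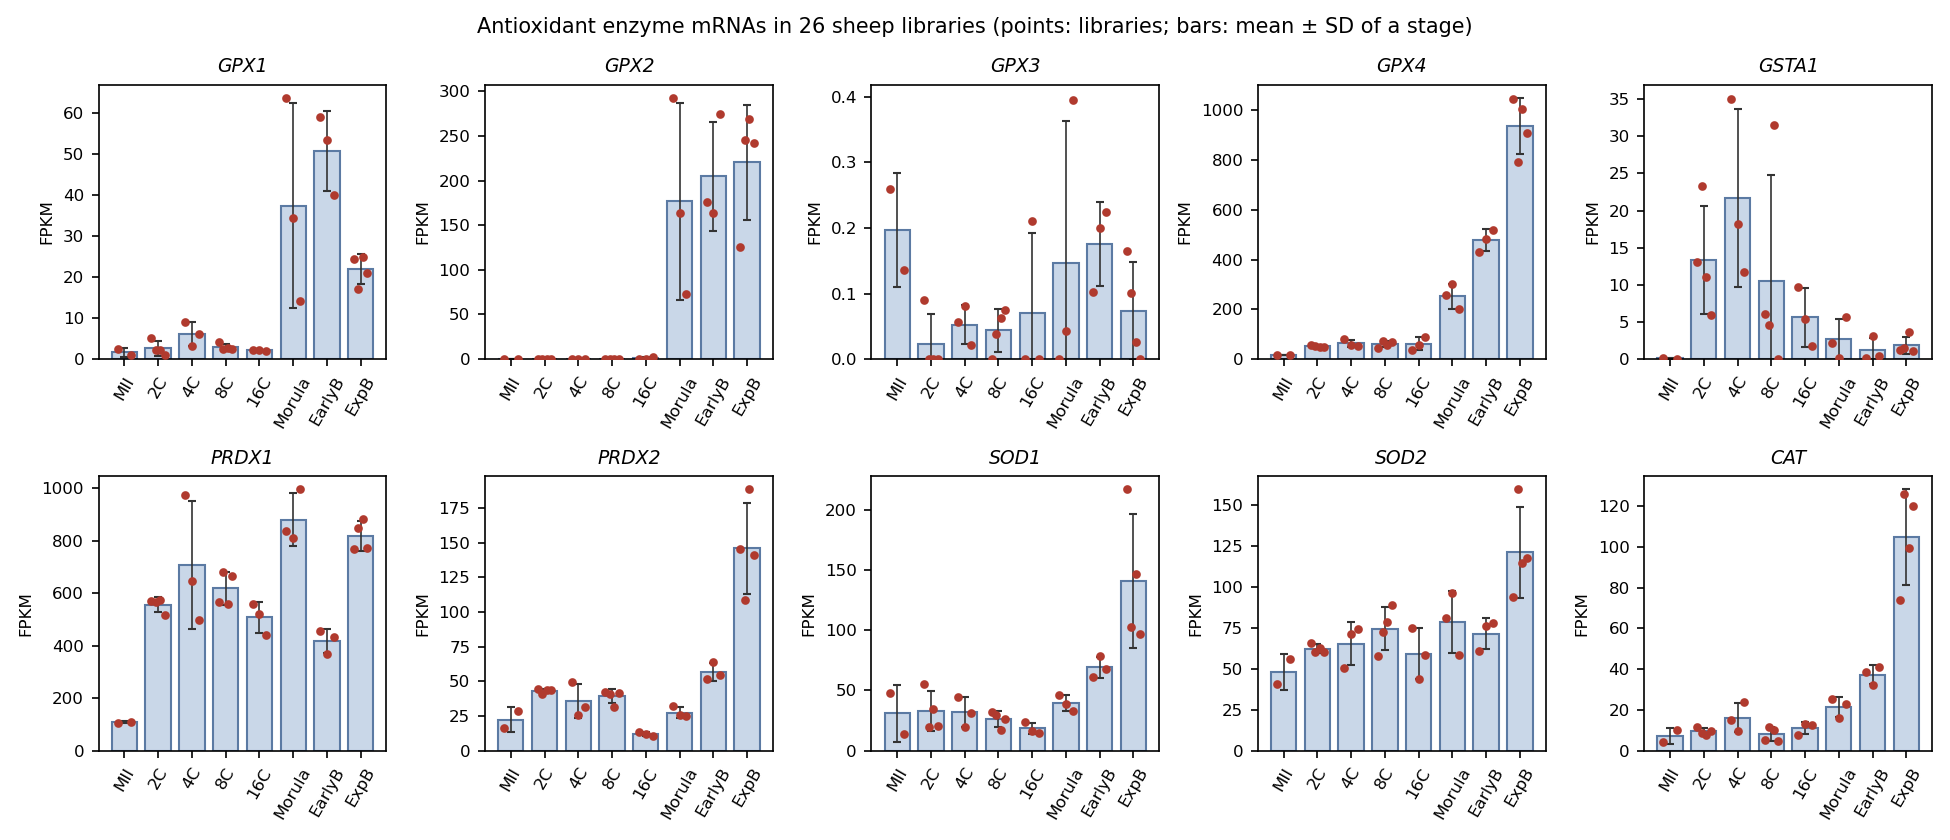
FPKM of the 10 genes (one panel each, linear axis from 0, scales differ) in the 8 stages, with points for the 26 libraries and bars for the mean ± SD of a stage. GPX4 reaches 939 ± 112 in ExpB, GPX2 appears and GPX1 rises in Morula, GSTA1 is highest in 4C at 21.7 ± 12.0, and GPX3 stays at or below 0.396 in every library.

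The makeup of that sum changed with stage. PRDX1 made up 45.9% ± 0.707 of it in MII and between 69.4% and 73.2% at 2C, and between 30.8% and 35.3% in ExpB. GPX4 made up 7.43% ± 0.184 in MII and 37.3% ± 3.65 in ExpB, where it stood above PRDX1 in 3 of the 4 libraries. By rank of the stage mean among all 30186 genes, PRDX1 was 720th in MII, 99th at 2C and 132nd in ExpB. GPX4 went from 2837th in MII to 109th in ExpB, and CAT from 4481st to 735th.

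**Figure D2:**
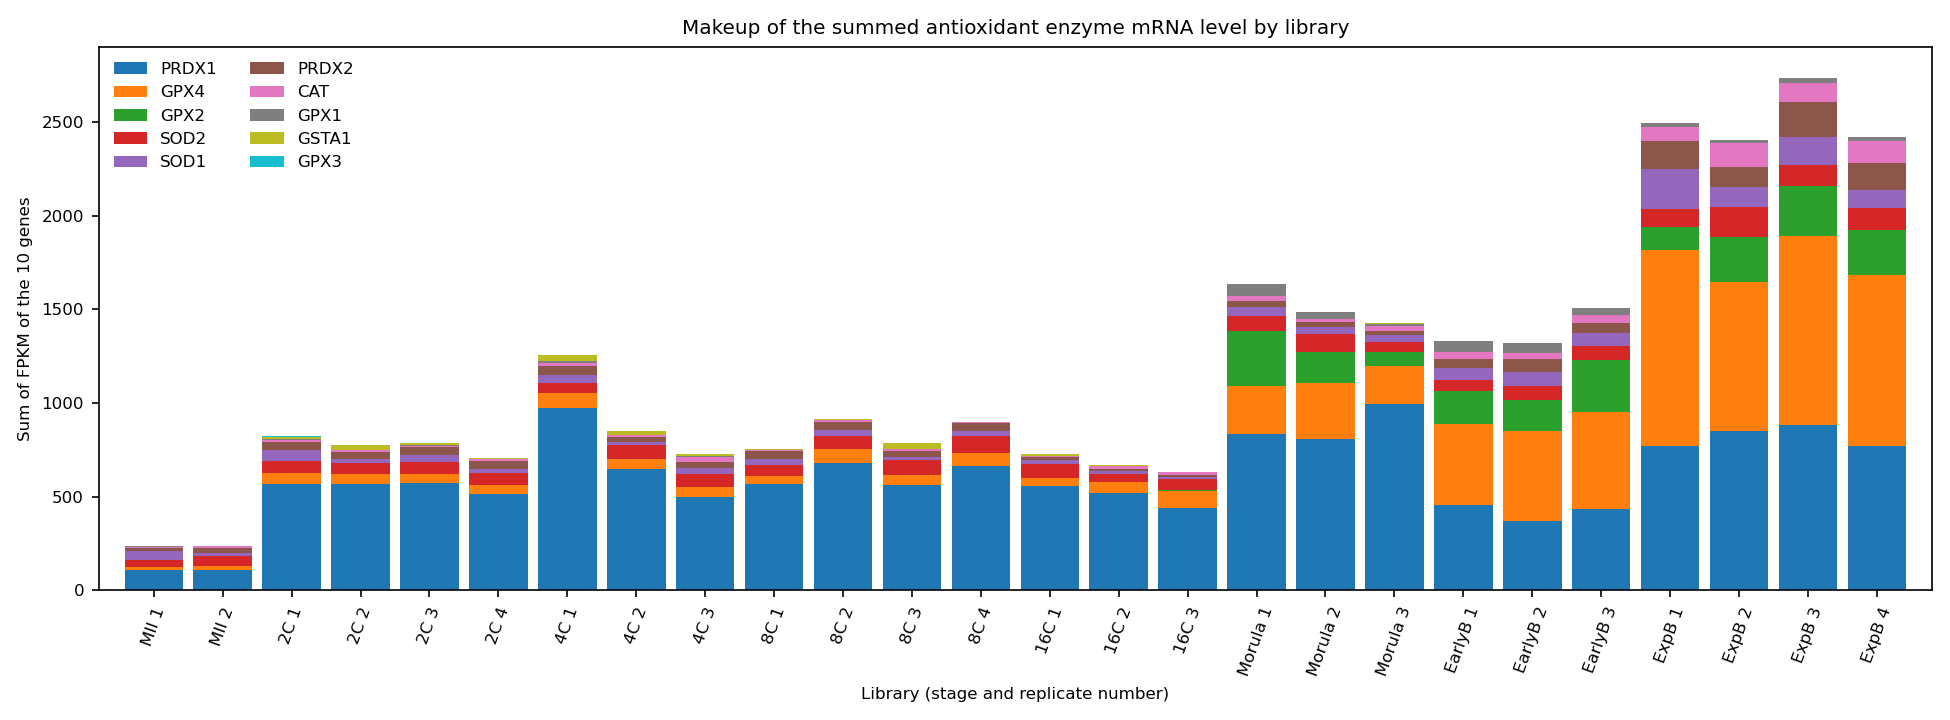
Sum of the FPKM of the 10 genes in each of the 26 libraries, stacked by gene. PRDX1 is the largest part of every bar from MII to Morula, and GPX4 grows from 17.6 ± 0.603 in MII to 939 ± 112 in ExpB.

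From stage to stage, members were called in 5 of the 7 steps. Between MII and 2C there were 3 higher (GPX4, PRDX1 and GSTA1; 4.44% of all tested genes) and 0 lower (2.01% of all). At 4C against 2C there were 0 higher (0.00634% of all) and 0 lower (0% of all). At 8C against 4C there were again 0 higher (0.577% of all) and 0 lower (0.33% of all). These steps had few calls among all genes as well, and at an unadjusted p under 0.05 limma gave 1 member of 9 (GPX1, beside 8.43% of all tested genes) in the first and 2 (GSTA1 and CAT, beside 15.6% of all) in the second. At 16C against 8C, 0 were higher (5.54% of all) and PRDX2 alone was lower (2.01% of all). In Morula against 16C, 5 were higher (GPX1, GPX2, GPX4, PRDX2 and SOD1; 28.1% of all) and 0 lower (15% of all). In EarlyB against Morula PRDX2 was higher (14.7% of all) and PRDX1 lower (12.4% of all), 1 gene each way. In ExpB against EarlyB, 2 were higher (PRDX2 and CAT; 4.65% of all) and 1 lower (GPX1; 13.1% of all). Across the window in which the sheep embryonic genome is known to be activated, Morula against 4C, 3 were higher (GPX1, GPX2 and GPX4; 31.4% of all) and GSTA1 was the 1 lower (17.4% of all), so that the share of members called higher there is close to that of all genes.

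**Figure D3:**
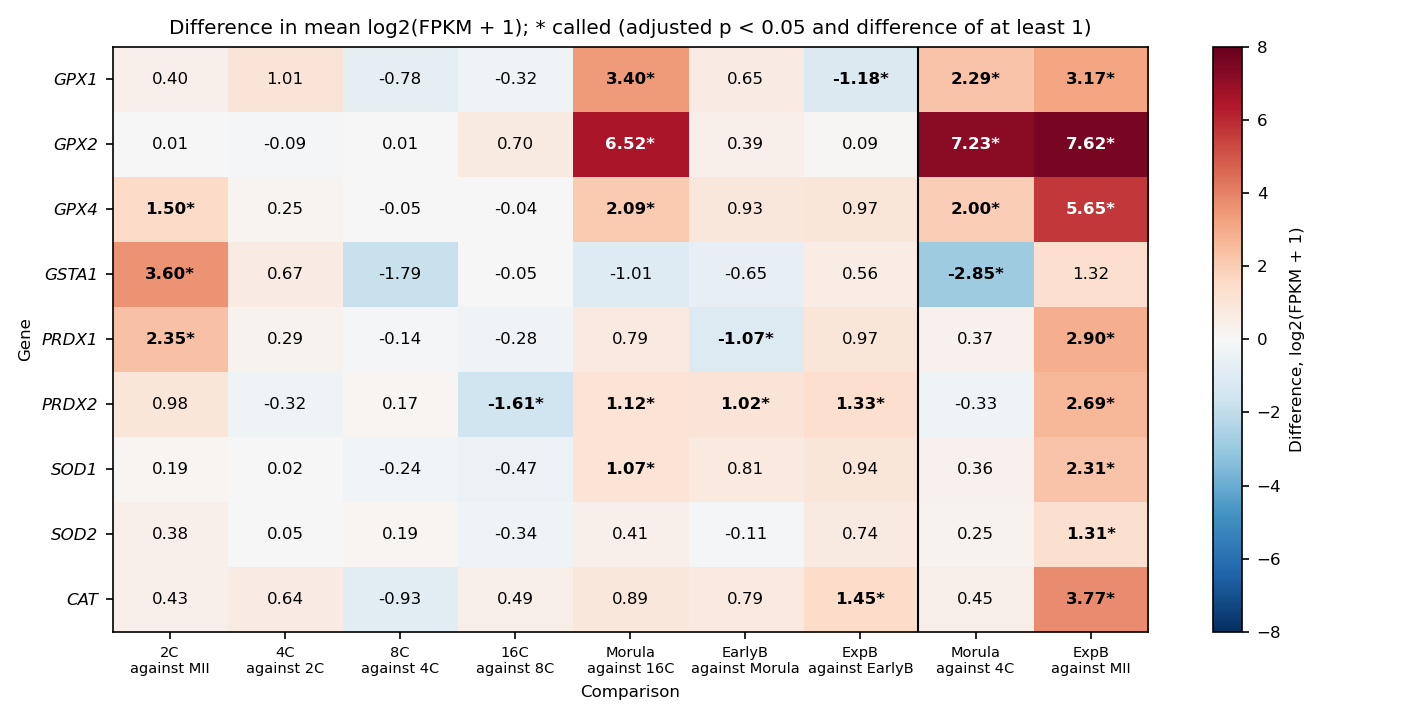
Difference in mean log2(FPKM + 1) for the 9 tested genes (rows) in the 7 successive comparisons and, right of the line, 2 wider ones (columns), with called differences in bold and starred. Calls stand in 5 of the 7 successive steps, most of them (5) at Morula against 16C, and none stands at 4C against 2C or 8C against 4C.

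Of the superoxide dismutases, SOD2 varied least with stage. Its libraries stood at 40.3 and 56.0 in MII, at 65.9, 60.3, 62.6 and 60.3 at 2C, at 50.6, 71.0 and 74.4 at 4C and at 57.5, 72.7, 78.3 and 88.8 at 8C. They stood at 74.9, 43.9 and 58.6 at 16C, 80.7, 96.5 and 58.3 in Morula, 60.8, 75.9 and 77.7 in EarlyB and 93.5, 159.7, 114 and 117 in ExpB. Every neighbouring pair in the order of the stage means overlapped, and no successive step was called. In the order of development, 2 steps had no overlap. All 2C libraries lay above those of MII (difference 0.38, adjusted p = 0.4). All ExpB libraries lay above those of EarlyB, under the required difference of 1 (0.74, adjusted p = 0.0096). The ends differed: ExpB, at 121 ± 27.7, was higher than MII, at 48.1 ± 11.0 (difference 1.31, SE 0.25, adjusted p = 5.8e-05), and the groups did not overlap. That difference fell below 1 with each library rescaled to 1e6, the TPM scale (0.89, adjusted p = 0.0048), and with median-ratio scaling (adjusted p = 0.00072), within a range of 0.89 to 1.54 over 35 alternatives.

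SOD1 was scattered up to the 16-cell stage and highest in expanded blastocysts. The MII libraries stood apart at 47.7 and 14.1, and the 2C libraries at 55.6, 19.9, 34.2 and 20.7. The 4C libraries stood at 44.9, 19.5 and 31.4, the 8C libraries at 31.9, 29.7, 16.8 and 26.4 and the 16C libraries at 24.0, 16.5 and 14.8. These 5 stages overlapped in their values. Morulae stood at 46.3, 38.9 and 32.9, above all 16C libraries (difference 1.07, SE 0.41, adjusted p = 0.027). EarlyB followed at 61.6, 78.7 and 67.7 and ExpB at 218, 103, 147 and 96.6, with no overlap between these stages, although neither step was called (adjusted p = 0.11 and 0.053). ExpB was 4.56 times the MII mean (difference 2.31, SE 0.43, adjusted p = 5.3e-05). In each library SOD2 can be set beside SOD1, since both levels are per length: SOD2 was 0.846 and 3.97 times SOD1 in the MII libraries, 1.18 to 3.03 times at 2C, 1.13 to 3.64 times at 4C, 1.80 to 4.66 times at 8C, 2.67 to 3.95 times at 16C, 1.74 to 2.48 times in Morula, 0.964 to 1.15 times in EarlyB and 0.43 to 1.55 times in ExpB. The ExpB values overlapped those of MII, 2C, 4C and EarlyB, and not those of 8C, 16C and Morula. The SOD1 call at Morula against 16C ended on the TPM scale and with median-ratio or quantile scaling (adjusted p = 0.12, 0.088 and 0.062), without 16C replicate 2 or 3 (0.069 and 0.079) and without Morula replicate 1 or 2 (0.084 and 0.053), in a range of 0.0057 to 0.12.

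CAT, the peroxisomal catalase, was low until the 16-cell stage and highest in expanded blastocysts. Its libraries stood at 4.31 and 9.94 in MII, at 11.5, 8.58, 7.72 and 9.79 at 2C, at 14.8, 9.61 and 23.8 at 4C, at 5.15, 11.6, 10.05 and 4.89 at 8C and at 7.72, 13.2 and 12.4 at 16C. All 5 early stages overlapped. The Morula libraries were at 25.3, 16.0 and 22.7, the EarlyB libraries at 38.6, 32.0 and 41.1 and the ExpB libraries at 73.9, 126, 99.3 and 119.9. From Morula on, each stage lay wholly above the one before, although 4C replicate 3 reached the range of Morula. CAT rose from EarlyB to ExpB (difference 1.45, SE 0.31, adjusted p = 0.00083), to 14.7 times the MII mean. The step from 16C to Morula was not called (difference 0.89, adjusted p = 0.024).

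GPX4, the peroxidase of membrane lipid hydroperoxides, rose in more steps than any other member except PRDX2 and ended highest of all 10. It stood at 17.2 and 18.0 in MII and at 55.3, 53.3, 48.9 and 49.6 at 2C, a 2.94-fold higher mean (difference 1.504, SE 0.26, adjusted p = 0.00058) with no overlap. It then kept to one range, with 80.8, 54.6 and 52.8 at 4C, 44.6, 71.7, 55.2 and 70.3 at 8C, and 37.5, 56.7 and 89.9 at 16C. Morulae stood at 256, 301 and 200.2, or 4.11 times the 16C mean (difference 2.09, SE 0.24, adjusted p = 1.8e-07). EarlyB stood at 431, 482 and 519.9 and ExpB at 1047, 795, 1007 and 909. Neither of these last steps overlapped, and both were under the required difference of 1 by a small margin (0.93, adjusted p = 0.0032, and 0.97, adjusted p = 0.0018). The ExpB mean of 939 ± 112 was 53.4 times that of MII (difference 5.65, SE 0.26, adjusted p = 1.3e-14).

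GPX1 and GPX2, the cytosolic hydrogen peroxide reducing forms, were both low until the 16-cell stage and both rose in the morula, GPX2 from close to 0 and GPX1 from a low level present in every library. GPX2, which is known mainly from the epithelium of the gut, was listed at 0 in 8 of the 16 libraries from MII to 16C. The largest value among the other 8 was 2.02, in 16C replicate 3. About 59 reads lay behind that value, and between 0 and 14 behind each of the other early libraries. Morulae stood at 293, 164 and 73.3, EarlyB at 176, 163 and 275, and ExpB at 126, 245, 269 and 242. No early library came near these values, and the 3 late stages overlapped one another. The difference of Morula against 16C was 6.52 (SE 0.38, adjusted p = 6.5e-12), the widest of any member in a successive step, and the following steps were not called. By stage mean, GPX2 ranked 10483rd of 30186 genes at 16C and 571st in Morula.

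GPX1 was present from the oocyte on, at lower levels. It stood at 2.34 and 0.877 in MII, 5.08, 2.12, 2.23 and 0.945 at 2C, 9.08, 3.12 and 6.02 at 4C, 4.13, 2.49, 2.67 and 2.39 at 8C and 2.12, 2.25 and 1.91 at 16C. Morulae stood at 63.7, 34.2 and 14.0, or 17.9 times the 16C mean (difference 3.40, SE 0.41, adjusted p = 3.3e-07). EarlyB stood at 58.9, 53.4 and 39.9, and ExpB at 24.4, 17.0, 24.9 and 21.1. Unlike GPX2 and GPX4, GPX1 was called lower in ExpB than in EarlyB (difference -1.18, SE 0.39, adjusted p = 0.019), with no overlap between the libraries; whether the genes differ in this step was not tested. Median-ratio scaling ended that call (-0.82, adjusted p = 0.12), as did the fits without EarlyB replicate 1 or 2 (adjusted p = 0.073 and 0.056) and without ExpB replicate 2 (adjusted p = 0.052), in a range of 0.0034 to 0.12.

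The 3 morula libraries kept one order for both genes. GPX1 and GPX2 were both highest in Morula replicate 1 and lowest in replicate 3, and GPX2 was 4.60, 4.79 and 5.22 times GPX1 in replicates 1, 2 and 3. PRDX1 had the highest of the 3 values, 997, in Morula replicate 3, where GPX1 and GPX2 were lowest. The summed blastocyst and trophectoderm markers stood at 100.0, 148 and 121 in the same libraries, an order of their own, and their part in the spread was not tested. In ExpB, where GPX1 was lower, GPX2 was 5.15 to 14.4 times GPX1.

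GPX3, the secreted plasma form, was close to absent at every stage. Its highest library value was 0.396, in Morula replicate 3, and it was listed at 0 in 8 of 26 libraries. No more than about 16 reads lay behind any value. MII libraries stood at 0.259 and 0.136. With so few reads, GPX3 was below the filter and no difference between its stages was tested.

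The peroxiredoxins PRDX1 and PRDX2 are both cytosolic but followed different courses. PRDX1 stood at 107 and 111 in MII and at 571, 566, 575 and 515 at 2C, 5.12 times as much (difference 2.35, SE 0.20, adjusted p = 2.5e-07). The 4C libraries stood at 974, 648 and 497, the 8C libraries at 566, 683, 561 and 665 and the 16C libraries at 560.0, 521 and 442. The 4C values overlapped those of 2C, 8C and 16C. All 16C libraries lay below those of 8C, by a small margin, and that step was not called (difference -0.28, adjusted p = 0.3). Morulae stood at 836, 809 and 997, above every 16C library but under the required difference (0.79, adjusted p = 0.00071). EarlyB fell to 456, 368 and 433 (difference -1.07, SE 0.18, adjusted p = 5.5e-05), and ExpB stood at 769, 849.6, 883 and 774. That last step had an adjusted p of 0.00012 with a difference of 0.97, and the EarlyB libraries overlapped neither Morula nor ExpB libraries.

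PRDX2 had its lowest values at 16C and rose in each later step. MII libraries stood at 15.9 and 28.7, 2C at 44.4, 41.1, 43.7 and 43.8, 4C at 49.8, 25.8 and 31.8 and 8C at 42.0, 41.1, 31.6 and 41.9. All 2C libraries lay above those of MII, just under the required difference of 1 (0.98, adjusted p = 0.011). That step was called on the TPM scale (1.165, adjusted p = 0.0041) and with a pseudocount of 0.1 (1.01, adjusted p = 0.011). The 16C libraries, at 13.4, 12.1 and 10.7, lay below every other library (difference from 8C -1.61, SE 0.22, adjusted p = 1.1e-05). Morulae stood at 32.1, 25.3 and 24.8 (difference 1.12, SE 0.23, adjusted p = 0.00022), EarlyB at 51.5, 64.2 and 54.4 (1.02, SE 0.23, adjusted p = 0.00088) and ExpB at 146, 109, 189 and 141 (1.33, SE 0.22, adjusted p = 4.6e-05). At 16C the level of PRDX1 was 41.5 to 43.0 times that of PRDX2, beside 4.67 to 7.79 times in ExpB. The rise of PRDX2 into Morula fell below 1 with TPM, median-ratio and quantile scaling (lowest 0.77, adjusted p = 0.0088). The calls at EarlyB against Morula lay close to 1 and ended for both genes without Morula replicate 3 or EarlyB replicate 2, which left 0 members called there. PRDX2 also ended without Morula replicate 2 and with TPM or median-ratio scaling, and PRDX1 with quantile normalization. Their differences ranged from 0.92 to 1.33 and from -1.18 to -0.78.

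GSTA1 was the only member called lower in Morula than at 4C. It appeared between MII and 2C, where GPX4 and PRDX1 also rose, and its stage mean was highest at 4C. Later stage means were lower, but no successive step after 4C was called (lowest adjusted p = 0.27, at 8C against 4C). GSTA1 stood at 0.160 and 0 in MII, and at 13.1, 23.4, 11.1 and 5.99 at 2C (difference 3.60, SE 0.90, adjusted p = 0.011). The 4C libraries stood at 35.0, 18.2 and 11.8, and the 8C libraries at 6.04, 4.53, 31.5 and 0. The 8C libraries were widely scattered: replicate 4 had no read and replicate 3 about 2443. The 16C libraries stood at 9.66, 5.41 and 1.80, Morula at 2.18, 0.104 and 5.66, EarlyB at 0.0848, 3.09 and 0.359 and ExpB at 1.21, 1.47, 3.60 and 1.09. Morula was lower than 4C (difference -2.85, SE 0.84, adjusted p = 0.0049), with no overlap. The call at 2C ended without MII replicate 1 (adjusted p = 0.15) or MII replicate 2 (adjusted p = 0.063), in a range of 0.0028 to 0.15. The other alpha-class transferases sought were GSTA2, GSTA3 and GSTA4, whose reads can be close in sequence to GSTA1. By symbol they were not among the 30186 genes, and whether they stand there under other names was not examined.

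The pattern of GSTA1 was followed most closely by a pair of proteoglycan genes. Among 7348 genes with a stage mean of at least 10 in some stage, the highest Pearson correlations with GSTA1 over the 26 libraries were with LUM, an extracellular matrix proteoglycan (r = 0.81), and SRGN, a granule proteoglycan known from blood cells (r = 0.808). LUM stood at 5.37 and 3.41 in MII, at 134, 179.9, 61.1 and 37.4 at 2C, at 289.0, 122 and 133 at 4C and at 27.8, 82.7, 113 and 5.22 at 8C. SRGN stood at 4.40 and 8.13 in MII, at 61.5, 140.0, 40.0 and 38.6 at 2C, at 801, 477 and 305 at 4C and at 114, 173, 246 and 5.47 at 8C. Both were highest in 4C replicate 1, where GSTA1 was also highest, and both were lowest within 8C in replicate 4, where GSTA1 was at 0. The correspondence was not complete: 16C replicate 1 had the highest GSTA1 of its stage and the lowest LUM, 7.66.

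**Figure D4:**
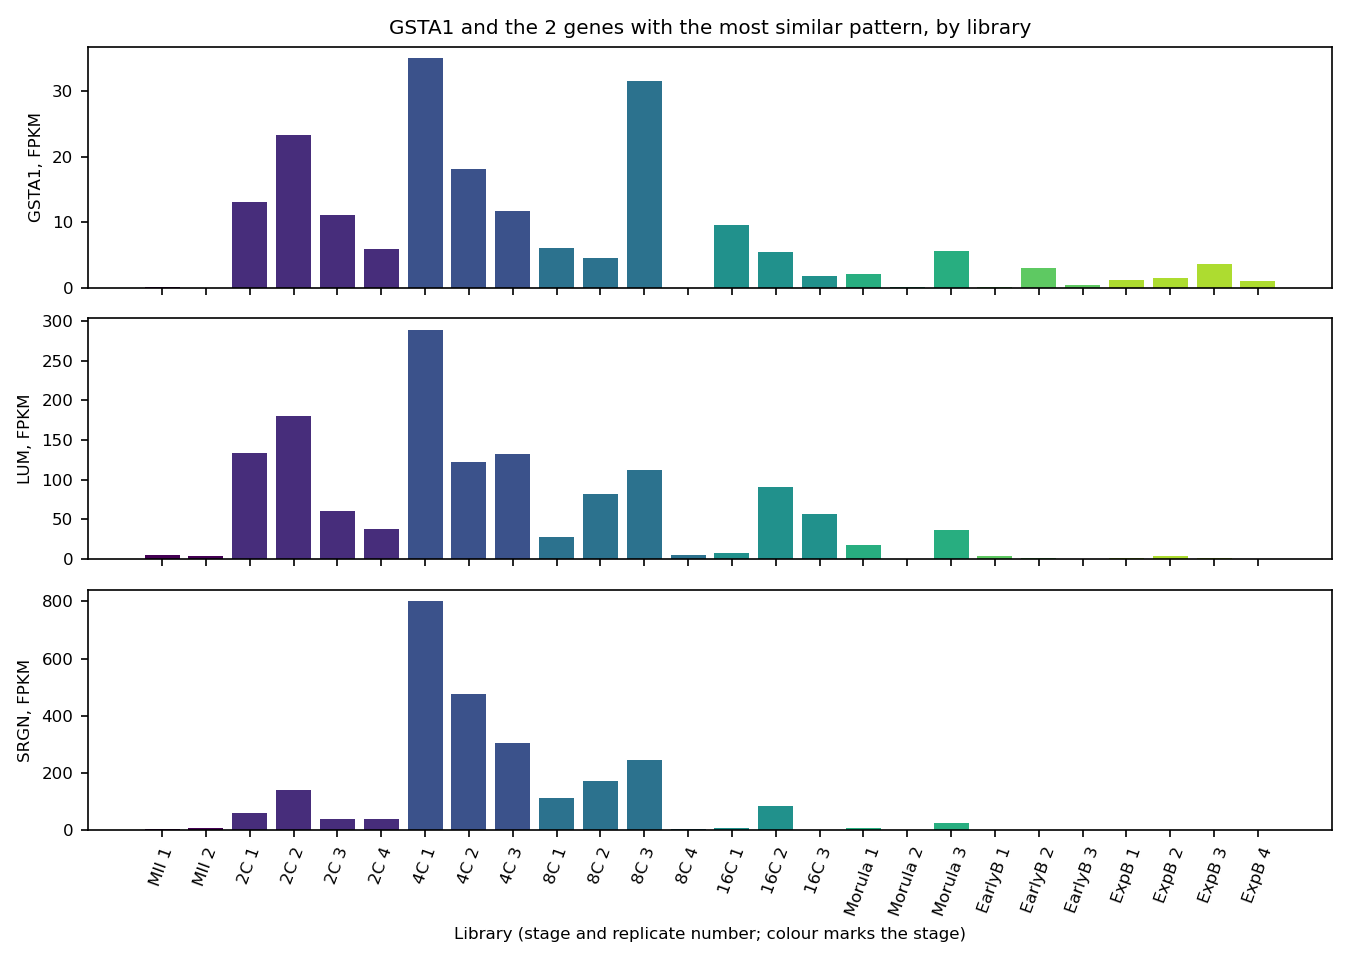
FPKM of GSTA1, LUM and SRGN (3 panels, linear axes from 0) in each of the 26 libraries in the order of the stages, with colour marking the stage. All 3 are highest in 4C replicate 1, and within 8C all 3 are highest in replicate 3 and lowest in replicate 4.

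The 18 cumulus and granulosa cell markers in the table summed to between 64.0 and 70.5 in MII, 86.3 and 290.2 at 2C, 222 and 658 at 4C, 52.7 and 192 at 8C, 56.5 and 177 at 16C and 81.1 and 145 in Morula. The sums of 311 to 352 in EarlyB and 774 to 1229 in ExpB came mostly from PTGS2, a prostaglandin synthase that trophectoderm also makes, at 984 in the ExpB mean. Leaving out PTGS2, a choice made after its values were seen, the sums were 48.8 to 79.7 in EarlyB and 38.5 to 56.6 in ExpB. Over the 26 libraries GSTA1 had r = 0.13 with the sum of all 18 markers, and the other members 0.06 (GPX3) to 0.82 (CAT). Without PTGS2 GSTA1 had r = 0.79 and the others -0.63 to 0.14. LUM, already named for its likeness to GSTA1, is among the 18 and a large part of that sum (179.9 of 290.2 in 2C replicate 2), so the value of 0.79 is no separate observation. The defining granulosa receptor FSHR stood at 4.63 to 6.43 at 4C, but at 0.0916 in 8C replicate 3, where GSTA1 was 31.5, and at 0 in 16C replicates 1 and 2, where GSTA1 was 9.66 and 5.41. Of the 18 markers, 11 reached an FPKM of 1 in some 4C library, beside 8 in MII. AMH and NR5A1 were listed at 0 in every library of both stages. By stage mean, CYP11A1 stood at 0.105 in MII, 3.81 at 2C, 5.75 at 4C and 2.43 at 16C. SERPINE2 stood at 25.8 in MII, 30.6 at 2C and 75.2 at 4C. Other markers did not have their highest mean at 4C. In MII, 2C and 4C, VCAN stood at 17.6, 17.3 and 14.2, and COL1A2 at 2.28, 2.14 and 2.17. HSD3B1 stood at 4.59, 6.71 and 4.95, and INHBA at 1.21, 0.558 and 1.03. TNFAIP6 ranged from 2.07 to 235 over the 4C libraries, with a median of 2.65, so that a single library held most of it. Of 13 tested markers, 1 was higher and 0 lower in 2C against MII (4.44% and 2.01% of all). In Morula against 4C 2 were higher and 5 lower (31.4% and 17.4% of all). The part of follicle cell RNA in the GSTA1 values was not tested. The same library, 4C replicate 1, also had the highest PRDX1, PRDX2, GPX4, GPX1 and SOD1 of its stage.

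Members that moved together over the 26 libraries can be described by their correlations, which rest on shared stages and shared libraries. GPX2 and GPX4 had r = 0.93, GPX1 and GPX2 r = 0.92 and GPX4 and CAT r = 0.91. The lowest value of any pair was that of GSTA1 and GPX2, r = -0.51. The genes most like the members were SLC35F2 and the transcription factor SPIC for GPX2 (r = 0.991 and 0.988), the alanyl-tRNA synthetase AARS1 and SMIM20 for GPX4 (0.982 and 0.977), ZNF322 and METAP1 for GPX1 (0.962 and 0.961) and the endoplasmic reticulum stress gene HERPUD1 and TSPO for CAT (0.962 and 0.959). They were PEBP1 and LOC101116622 for SOD1 (0.9 and 0.898), SNX2 and the ubiquitin ligase ITCH for PRDX2 (0.922 and 0.908) and VPS29 and COPS5 for PRDX1 (0.89 and 0.881). SOD2 varied too little over the stages for this description.

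Other genes of the pathway were read from 7 lists of 95 genes, of which 80 were in the table and 71 were tested. In ExpB against MII 44 of the 71 were higher and 11 lower (32.8% and 20.9% of all tested genes), with a median difference of 1.74, beside 0.33 over all tested genes. In Morula against 4C 33 were higher and 13 lower (31.4% and 17.4% of all), with a median of 0.87, beside 0.35. With quantile normalization the counts were 39 and 11 in the first and 26 and 14 in the second. Of the successive steps, Morula against 16C had the most calls, as it had among all genes, with 35 higher and 12 lower (28.1% and 15% of all). At 2C against MII there were 3 higher and 2 lower, a share like that of all genes (4.44% and 2.01%). There were none at 4C against 2C (0.00634% and 0%), 1 and 1 at 8C against 4C (0.577% and 0.33%), and 4 and 1 at 16C against 8C (5.54% and 2.01%). In EarlyB against Morula there were 10 and 8 (14.7% and 12.4%), and in ExpB against EarlyB 11 and 3 (4.65% and 13.1%).

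**Figure D5:**
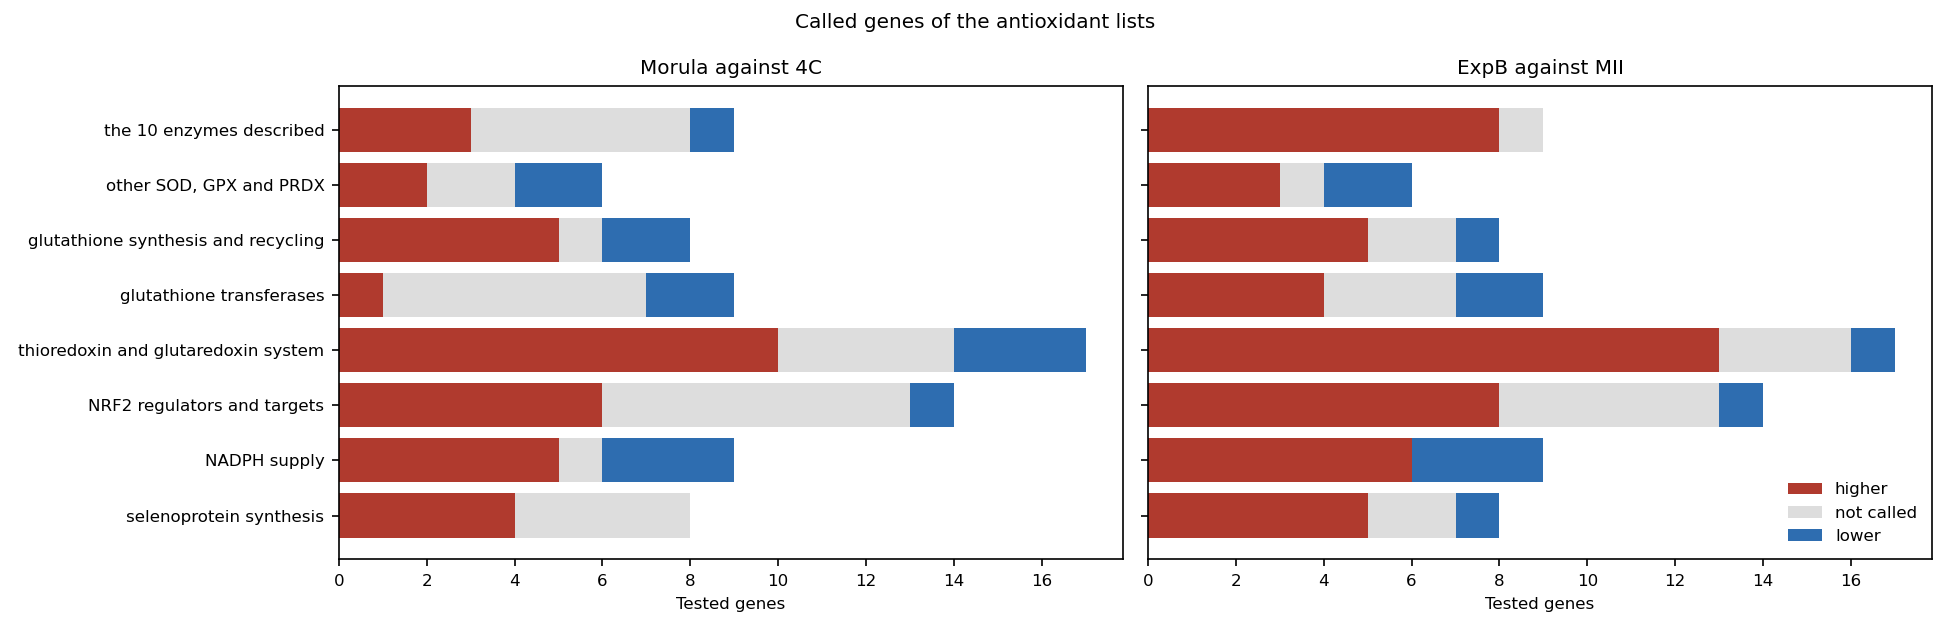
Numbers of tested genes called higher, not called and called lower in the 10 enzymes described and in 7 pathway lists, for Morula against 4C (left) and ExpB against MII (right). In ExpB against MII the thioredoxin and glutaredoxin list has 13 of 17 genes higher and the NADPH supply list 6 of 9, with 3 lower. Of all tested genes, 32.8% were higher and 20.9% lower there.

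Of the other superoxide dismutases, peroxidases and peroxiredoxins, 6 were tested, with 2 higher and 2 lower in Morula against 4C (31.4% and 17.4% of all tested genes) and 3 higher and 2 lower in ExpB against MII (32.8% and 20.9% of all). The 2 of 6 higher in Morula are near the share of all genes. PRDX5, a mitochondrial and peroxisomal peroxiredoxin, rose from 63.9 ± 7.25 at 4C to 768 ± 113 in Morula (difference 3.56, adjusted p = 4.4e-09), and GPX6 from 0 in every 4C library to 8.55 ± 8.83. PRDX3, the mitochondrial matrix form, rose from 46.2 ± 15.7 in MII to 255.9 ± 53.1 in ExpB. PRDX6, which uses glutathione rather than thioredoxin, fell from 772 ± 53.9 to 167 ± 3.29 between 4C and Morula (difference -2.20, adjusted p = 1.3e-08), having risen from 231 ± 50.2 in MII to 759 ± 142 at 2C. GPX8, a peroxidase of the endoplasmic reticulum, fell from 55.6 ± 29.6 to 9.30 ± 5.32 between 4C and Morula.

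In glutathione synthesis, recycling and cystine uptake, 8 genes were tested. In Morula against 4C 5 were higher and 2 lower (31.4% and 17.4% of all tested genes). In ExpB against MII 5 were higher and 1 lower (32.8% and 20.9% of all). GCLC, the catalytic subunit of the rate-limiting enzyme of glutathione synthesis, fell from 240.4 ± 101 in MII to 11.0 ± 1.52 in ExpB (difference -4.27, adjusted p = 8.3e-12). GSR, which reduces oxidized glutathione, rose from 0.877 ± 0.427 to 37.5 ± 4.59 between the same stages (4.37, adjusted p = 2.6e-11). SLC3A2, the heavy chain of the cystine and other amino acid exchangers, rose from 7.75 ± 1.02 at 4C to 34.0 ± 7.44 in Morula and stood at 202.5 ± 13.1 in ExpB. SLC7A11, the cystine transporter itself, fell from 5.48 ± 1.15 at 4C to 1.12 ± 0.599 in Morula, then stood at 9.66 ± 2.96 in ExpB. There it was higher than in MII, at 3.14 ± 1.44 (difference 1.36, adjusted p = 2e-04). CHAC2, a glutathione-degrading enzyme, rose from 0.760 ± 0.0259 at 4C to 14.6 ± 1.41 in Morula.

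The 9 tested glutathione transferases had 1 higher and 2 lower in Morula against 4C (31.4% and 17.4% of all tested genes). They had 4 higher and 2 lower in ExpB against MII (32.8% and 20.9% of all). GSTM3 was abundant in oocytes and fell from 1215 ± 594 in MII to 28.4 ± 11.5 in ExpB (difference -5.37, adjusted p = 6.7e-12). MGST2, a microsomal transferase, fell from 24.1 ± 0.151 to 2.67 ± 1.09, and MGST1 rose from 0.204 ± 0.218 to 14.9 ± 4.29 between the same stages. GSTK1 was called higher at a low level, from 0 in both MII libraries to 1.49 ± 0.429. HPGDS, the 1 gene higher in Morula, went from 0.0458 ± 0.0294 at 4C to 1.69 ± 0.504, and with quantile normalization its difference was below 1 (0.87). That scaling also turned the median of this list from 0.07 to -0.10 in Morula against 4C and from 0.37 to -0.26 in ExpB against MII.

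Of 17 thioredoxin and glutaredoxin genes, 10 were higher and 3 lower in Morula against 4C (31.4% and 17.4% of all tested genes). In ExpB against MII 13 were higher and 1 lower (32.8% and 20.9% of all). MSRB1 and MSRB3, which repair oxidized methionine, rose from 0.165 ± 0.233 to 77.1 ± 13.7 and from 1.05 ± 0.245 to 45.3 ± 2.22 between MII and ExpB. SESN3, a stress-induced sestrin, fell from 14.4 ± 7.15 to 0.612 ± 0.122. MSRB2 fell from 9.14 ± 4.66 at 4C to 2.14 ± 0.619 in Morula, then stood at 9.04 ± 3.64 in ExpB. TXN, the thioredoxin that reduces peroxiredoxins, is named although it lies outside the naming rule and was chosen after its values were seen: it stood at 612 ± 434 in MII and 4748 ± 1050 in ExpB.

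The list of regulators and targets of NRF2, the transcription factor of the antioxidant response, had 14 tested genes. In Morula against 4C 6 were higher and 1 lower (31.4% and 17.4% of all tested genes). In ExpB against MII 8 were higher and 1 lower (32.8% and 20.9% of all). NFE2L2, which encodes NRF2, rose from 0.901 ± 0.217 in MII to 38.1 ± 3.91 in ExpB (difference 4.36, adjusted p = 1.4e-11). FTH1, the ferritin heavy chain, rose from 242.5 ± 67.5 to 4127 ± 452 between the same stages, and MAFG, a small partner of NRF2, fell from 9.34 ± 2.21 to 2.13 ± 0.837. PARK7 rose from 51.9 ± 6.27 at 4C to 449.7 ± 79.3 in Morula. NQO1, a quinone reductase and classical NRF2 target, fell from 49.1 ± 6.08 at 4C to 14.3 ± 3.01 in Morula, then stood at 139 ± 28.0 in ExpB.

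NADPH feeds both the glutathione and the thioredoxin branch. Of 9 tested genes that supply it, 5 were higher and 3 lower in Morula against 4C (31.4% and 17.4% of all tested genes). In ExpB against MII 6 were higher and 3 lower (32.8% and 20.9% of all). The higher ones included the pentose phosphate enzymes TKT, from 0.845 ± 0.404 at 4C to 207 ± 20.5 in Morula (difference 6.83, adjusted p = 2.5e-11), and TALDO1, from 28.1 ± 2.91 to 276 ± 66.7. The lower ones included the malic enzymes ME1, from 95.0 ± 21.6 to 21.9 ± 9.45, and ME2, from 28.7 ± 7.85 to 3.12 ± 2.19. The list named for selenoprotein synthesis, on which the GPX enzymes depend, had 8 tested genes. It was drawn broadly and includes the selenoprotein SELENOP, so its counts are not of synthesis enzymes alone. In Morula against 4C 4 were higher and 0 lower (31.4% and 17.4% of all). In ExpB against MII 5 were higher, SELENOP among them, and 1 lower (32.8% and 20.9% of all). SEPHS1 rose from 5.44 ± 0.300 at 4C to 65.2 ± 12.3 in Morula, and SCLY, which releases selenium from selenocysteine, from 0.333 ± 0.198 to 5.00 ± 1.04. SEPHS2, which makes the selenium donor, rose from 9.78 ± 5.41 in MII to 81.2 ± 8.59 in ExpB, while SECISBP2, which reads the selenocysteine insertion element, fell from 21.5 ± 6.45 to 9.74 ± 0.828.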

How the data were processed

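The authors deposited one table of FPKM values, 1 column per library and 30186 genes. Tools named in the submitters' processing notes, without role or order, are featureCounts 2.0.1, SAMtools 1.9, HISAT2 2.1.0 and fastp 0.23.4. Build and annotation: not given in the sources used here. No coordinates or sequences are therefore printed. Stage and replicate number came from the sample titles.

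log2(FPKM + 1) was fitted with limma 3.58.1 in R 4.3.3 (lmFit on 8 stage means over all 26 libraries, contrasts.fit, eBayes with an intensity trend, 18 residual degrees of freedom), for the 15766 genes that reached an FPKM of 1 in 2 or more libraries, and tests were two-sided. The fit was tested on simulated data. Tables were made with Python 3.11.15 and pandas 2.3.3. Depth was recovered from small RNA genes under 300 bases, with lengths from RefSeq (assembly ARS-UI_Ramb_v3.0), whose low values were whole reads within 0.05 reads for 99.7% to 100.0% of values. Reads behind GPX1, GPX2, GPX3 and GSTA1 use the shortest gene length that gives whole reads, and a longer one would multiply them. Without molecular identifiers reads are not independent molecules.

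Members and lists were chosen with earlier results of these data known. Named are all members, up to 2 called genes per list and direction in Morula against 4C and in ExpB against MII, and the 2 genes most correlated with each member that has a stage mean of at least 10 and a range of at least 2. Besides the 7 pathway lists, marker lists stood for oocyte, blastocyst, cumulus with granulosa, sperm and blood. The 10 sperm markers summed to 3.99 to 16.0 and the 9 blood markers to 1.78 to 803 over all stages, and SRGN was most of the blood sum at 4C. Since poly(A) RNA was captured and tails were not measured, differences between MII and 2C need not be changes in total RNA.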

Additional observations from a re-analysis of the deposited data

Results flagged for a closer look

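In the stages with 4 libraries, 6 of 30 groups of member values had a library far from the other 3, and chance gives about 1 in 20. PRDX1 stood at 515 in 2C replicate 4, against 566 to 575 in the other 2C libraries. PRDX2 stood at 31.6 in 8C replicate 3, against 41.1 to 42.0 in the others. GPX1 stood at 4.13 in 8C replicate 1, against 2.39 to 2.67. GSTA1 stood at 3.60 in ExpB replicate 3, against 1.09 to 1.47. GPX2 stood at 0.130 in 8C replicate 4 and GPX3 at 0.0907 in 2C replicate 1, each with the other 3 libraries listed at 0, which is a matter of about 4 and 5 reads. A group with 3 libraries at 0 is flagged whatever the remaining value, so the rate of 1 in 20 does not apply to these groups.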

How the results depend on the processing

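Of 26 called member differences, 19 kept their direction and call in all 35 alternatives (9 settings and 26 libraries left out in turn), 7 lost the call in at least 1, and 0 reversed. Members called in Morula against 16C numbered 3 instead of 5 under each of 3 other scalings (TPM scale, median-ratio, quantile). In EarlyB against Morula they numbered 1 with TPM or median-ratio scaling, and 4 after quantile normalization (GPX4, SOD1, CAT and PRDX2), against 2. In ExpB against EarlyB they numbered 5 on the TPM scale and 6 with median-ratio scaling (GPX4, PRDX1, SOD1 and SOD2 added, GPX1 lost), against 3. With a pseudocount of 0.1 there were 2 in 16C against 8C, GPX2 added at a difference of 2.25 (adjusted p = 0.017), against 1. Leaving out 1 library gave 0 to 3 members in EarlyB against Morula (0 without Morula replicate 3 or EarlyB replicate 2), 2 to 4 in 2C against MII and in ExpB against EarlyB, and 4 to 5 in Morula against 16C. These scalings moved the median of all genes in Morula against 16C from 0.32 to 0.18, 0.19 and -0.01, and the higher and lower calls from 4437 and 2364 to 4268 and 3501, 3733 and 2754, and 3054 and 3263. In ExpB against EarlyB the split went from 733 and 2060 to 1198 and 1011 with median-ratio scaling. The fit with the replicate number as a replicate block called 4 members in ExpB against EarlyB, SOD1 added (1.05, adjusted p = 0.0092), and changed no other member's call. Of 80 same-numbered pairs of libraries, 13 had deviations from their stage means correlated above 0.1. The median was 0.00443 and the highest 0.396, beside a median of -0.00478 over 214 other pairs. How many of the 214 other pairs lay above 0.1 was not counted. In 8 of 26 libraries the best correlation was with their own number, where 80 pairs shared a number and 214 did not. The labels do not say whether equal numbers mark a shared culture or batch, and this was not tested. The cause of these changes was not tested. Few reads lay behind GPX3 throughout, at most about 16, and behind GPX2 before the morula, at most about 59, so their differences there rest on little.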
